A study of Mus musculus with 4 samples.

Results

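The insulin-like growth factor (IGF) family comprises secreted ligands, cell-surface receptors and a set of binding proteins. Its 10 genes considered here were the ligands Igf1 and Igf2, the receptors Igf1r and Igf2r, and the binding proteins Igfbp2, Igfbp3, Igfbp4, Igfbp5, Igfbp6 and Igfbp7. They were chosen by gene symbol, with earlier results of these data known, out of 36163 gene names on the array. They covered 15 of 55681 probes and 29 of 59305 non-control spots. RNA came from cells of the submandibular gland, a salivary gland, of C57BL/6 mice aged 8 to 10 weeks. Freshly isolated cells were separated by flow cytometry into stem cells and non-stem cell epithelia, with 2 arrays per group and no further treatment named. The sources used here give neither the sort markers nor whether the replicates were separate animals or sorts. The comparison asks how the transcripts of the stem cells differ from those of the other epithelial cells.

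IGF ligands act through Igf1r, a receptor tyrosine kinase related to the insulin receptor that feeds the PI3K-AKT and RAS-ERK pathways. Igf2r, also called the cation-independent mannose 6-phosphate receptor, does not signal in this way but carries Igf2 and lysosomal enzymes to lysosomes. The binding proteins hold the ligands in the extracellular space, and proteases that cut them set ligand free. In salivary glands the ducts are known as a source of secreted growth factors.

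Of the 10 genes, 6 could be tested: Igfbp4 and Igfbp5 were higher in stem cells, Igfbp2 and Igf2r were lower, and Igf1 and Igf1r did not pass the threshold. Igfbp5 was 4.68-fold higher and Igfbp4 at least 2.09-fold higher, while Igfbp2 was 1.71-fold and Igf2r 1.79-fold lower (n = 2 arrays per group). These directions are relative to the 75th percentile of each array, and scaling by spike-in controls instead, which moved the median of all genes by -2.26 on the log2 scale, gave Igfbp5 -0.03 and Igfbp4 0.50. The 2 rises among the tested members stand beside 14.1% of the 17362 genes tested that were called higher, and the 2 falls beside 16.8% called lower. The call was an adjusted p under 0.05 from limma (Benjamini-Hochberg adjustment across the whole table), and 30.9% of all genes were called in either direction. The groups did not overlap for 5 of the 6 members, against 71% of all genes (34.7% higher and 36.3% lower in stem cells). The remaining 4 members, Igf2, Igfbp3, Igfbp6 and Igfbp7, were well above background on no array.

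Each level below is a log2 signal relative to the 75th percentile of its array, so that 0 is the brightness of the probe at that percentile. A probe entered the test if 2 or more of the 4 arrays put it well above background. Levels of different probes are not set against each other, because probes bind with different efficiency. That percentile was a signal of 30.4 and 43.3 for stem cells, against 74.8 and 63.0 for non-stem cell epithelia, and 35.7% to 42.3% of spots were well above background with none saturated. Across genes, replicates correlated at 0.986 in stem cells and 0.992 in the other group, and arrays from both groups at 0.923 to 0.935. All 4 arrays lay on 1 slide with 1 scan time. All 9 general epithelial markers were above background on both arrays of both groups, with 2 called higher and 3 called lower in stem cells. Acinar markers summed to 7700 and 8240 times the 75th percentile in stem cells and to 14200 and 15400 times in non-stem cell epithelia, with 7 of 13 called lower. Erythroid markers summed to 43.7 and 44.6 against 181 and 225, with 4 of 4 tested called lower.

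The array reads each transcript through a 60-base probe. The first 30 bases of the probes behind the tested values, and of a pair of Igf1 probes that share sequence, are shown 5′ to 3′ because the result for each gene rests on them. Capitals mark the bases that the Igf1 pair has in common within the stretch shown.
Igfbp5, probe A_52_P281702: cacatcacatattactgtagctctctatag
Igfbp4, probe A_52_P257502: gagaagagaaacctcattcttggagtgaga
Igfbp2, probe A_55_P2056729: catctcttctacaacgagcagcaggagact
Igfbp2, probe A_66_P135391: aggagttcccagttttgacacatgtattta
Igf2r, probe A_51_P125467: agagttgtatataggtggcatttacatacc
Igf1r, probe A_66_P105801: gctaaagctaaggccacttgagtctattac
Igf1, probe A_55_P2085979: aaccattaaaaacatgccaccaagaccttc
Igf1, probe A_55_P2085984: cctaccaaataacaataataAGTCCAATAA
Igf1, probe A_55_P2031631: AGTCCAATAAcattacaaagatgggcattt

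**Figure D1:**
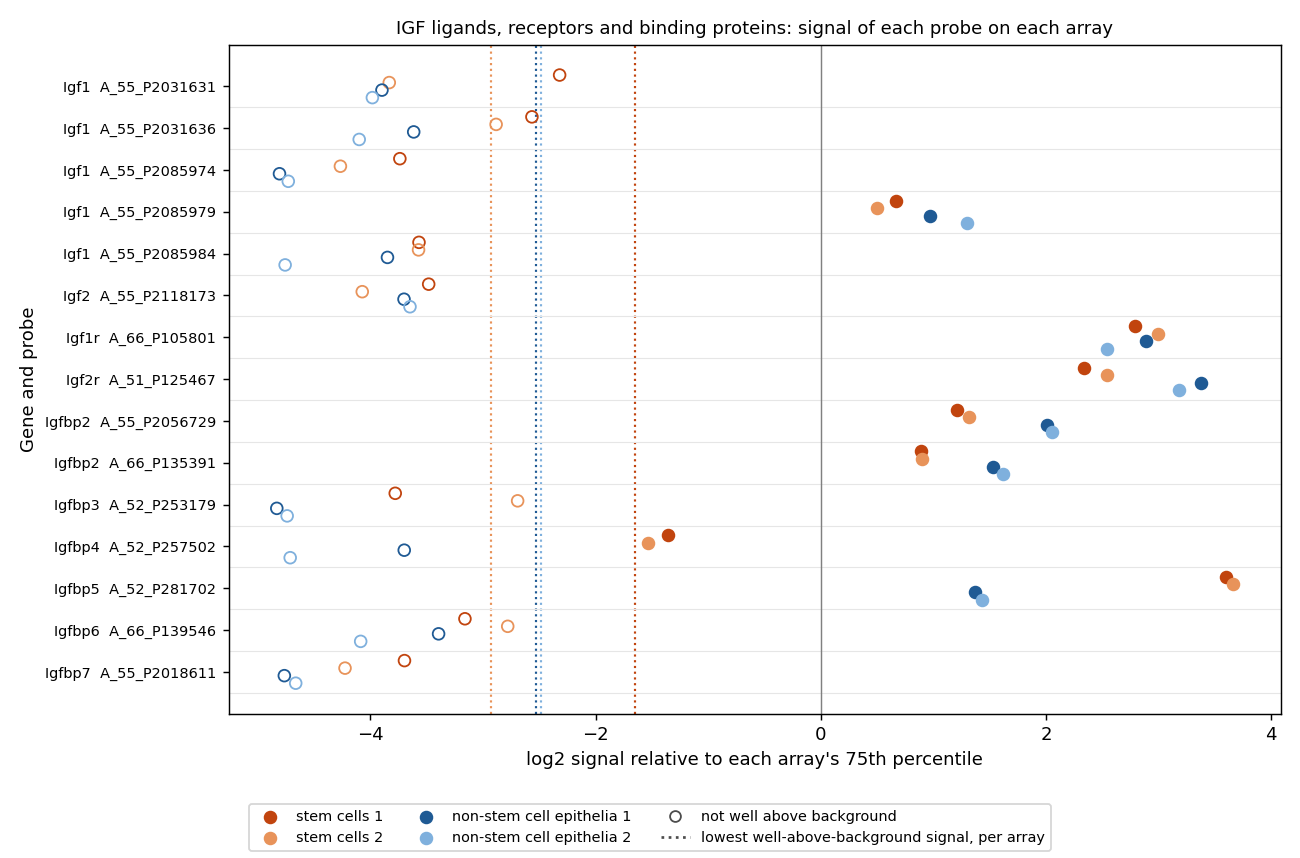
Log2 signal of each of the 15 probes of the IGF family on each array, relative to the 75th percentile of that array (x axis), with 1 line per gene and probe. Orange points are stem cells and blue points non-stem cell epithelia, open points were not well above background, and dotted lines give the lowest signal well above background on each array. The stem cell points of Igfbp5 lie at 3.60 and 3.66, to the right of the non-stem points at 1.37 and 1.43, whereas those of Igf2r and Igfbp2 lie to the left of the non-stem points. After spike-in scaling the Igfbp5 difference would be -0.03.

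Among the ligands, Igf1 was read by 5 probes, of which 1 was above background. That probe, A_55_P2085979 at chr10:87378456-87378515 on the plus strand (mm9), gave 0.67 and 0.50 in stem cells, against 0.97 and 1.30 in non-stem cell epithelia. Both stem cell arrays were below both non-stem arrays. The log2 difference, stem minus non-stem, was -0.55 ± 0.19 (SE, n = 2 arrays per group), with a 95% interval from -1.02 to -0.09, and the adjusted p of 0.075 missed the threshold. It passed without stem cells replicate 1, with a difference of -0.64 and an adjusted p of 0.048, and with normexp background correction, at -0.47 and 0.024. The array names this probe Igf1, but its transcript accession was not found in the RefSeq table used for names.

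The other 4 Igf1 probes lie 15046 to 21066 bases downstream of the detected one and none was well above background on an array. The pair printed above, A_55_P2085984 at chr10:87393561-87393620 and A_55_P2031631 at chr10:87393581-87393640, share 40 of their 60 bases, so they are not independent readings. The detected probe holds 36.7% G and C and that pair 35.0% each. Signals of the 4 probes ran from -4.81 to -2.32 on this scale, where undetected probes sit at a floor that differs between arrays, so no difference is read from them.

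Igf2, the fetal growth ligand encoded beside H19, was read by 1 probe at chr7:149839661-149839720 on the minus strand. It gave -3.48 and -4.07 in stem cells, against -3.70 and -3.65 in non-stem cell epithelia, none well above background. Igf2 transcript was therefore not detectable in either group on these arrays.

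Of the receptors, Igf1r was read by probe A_66_P105801 at chr7:75378461-75378520 on the plus strand. It gave 2.79 and 2.99 in stem cells, against 2.89 and 2.54 in non-stem cell epithelia. The groups overlapped, since non-stem replicate 1 lay between both stem cell arrays. The difference was 0.18 ± 0.19 (SE, n = 2 arrays per group; adjusted p = 0.51 by limma), with a 95% interval from -0.30 to 0.65. The interval holds changes of either sign, and the sign turned with normexp background correction, to -0.25, and with spike-in scaling, to -2.08.

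Igf2r was read by probe A_51_P125467, printed on 10 spots per array, which makes it the most repeated reading in the family. The files place it at chr17:12875253-12875263 on the minus strand, a span of 11 bases for a probe of 60. It gave 2.34 and 2.54 in stem cells, against 3.38 and 3.18 in non-stem cell epithelia. Both stem cell arrays were lower. The SD among spots of one array was 0.042 to 0.061, which is reading error within an array and not the spread between samples. The log2 difference was -0.84 ± 0.17 (SE, n = 2 arrays per group; adjusted p = 0.018 by limma), with a 95% interval from -1.27 to -0.42. Of all genes called lower, 71.7% changed by at least as much. The call was lost without non-stem replicate 1 (adjusted p = 0.10) and without non-stem replicate 2 (0.082).

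Of the 6 binding proteins, 3 were tested, and they moved in both directions. Igfbp5, which also binds extracellular matrix, was read by probe A_52_P281702 at chr1:72904829-72904888 on the minus strand. Its signal before scaling was 369 and 547 in stem cells, against 193 and 170 in non-stem cell epithelia, which gave levels of 3.60 and 3.66 against 1.37 and 1.43. Both stem cell arrays were far above both non-stem arrays, and replicates differed by about 0.06. The log2 difference was 2.23 ± 0.15 (SE, n = 2 arrays per group; adjusted p = 0.00066 by limma), with a 95% interval from 1.85 to 2.60. It ranked 296 of 17362 from the highest, and 11.9% of all genes called higher rose by at least as much. Normexp background correction gave 1.49 (adjusted p = 2e-05).

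Igfbp4, a binding protein cut by the protease Pappa, was read by a dim probe, A_52_P257502, at chr11:98913334-98913393 on the plus strand. It gave -1.36 and -1.54 in stem cells, where it was well above background, and -3.70 and -4.71 in non-stem cell epithelia, where it was not. Only a bound can therefore be given for the non-stem level. Against the lowest signal well above background on those arrays, the stem cell level of Igfbp4 was at least 2.09-fold higher. The fit to the measured signals gave an adjusted p of 0.0041 by limma, which does not test the bound. Normexp background correction gave a log2 difference of 0.66 (adjusted p = 0.0036), smaller than the bound.

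Igfbp2, which carries an integrin-binding motif, was read by a pair of probes on the plus strand. Probe A_55_P2056729 at chr1:72898677-72898736 gave 1.21 and 1.32 in stem cells, against 2.01 and 2.06 in non-stem cell epithelia. Probe A_66_P135391 at chr1:72898813-72898872 gave 0.89 and 0.90 against 1.53 and 1.62. On both probes both stem cell arrays were below both non-stem arrays. The brighter probe gave a log2 difference of -0.77 ± 0.15 (SE, n = 2 arrays per group; adjusted p = 0.016 by limma), with a 95% interval from -1.15 to -0.39, and the other gave -0.68 ± 0.15 (adjusted p = 0.028 over all probes tested, of which 28.8% were called). Of all genes called lower, 79.3% changed by at least as much as the brighter probe. The call was lost without non-stem replicate 1 (adjusted p = 0.084) and without non-stem replicate 2 (0.11).

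Igfbp2 and Igfbp5 are neighbours, with 0 genes between them in the RefSeq table of GRCm38.p6. They are transcribed from opposite strands, and their nearest probes lie 5957 bases apart on mm9. Igfbp2 fell while Igfbp5 rose, so these adjacent genes differed in opposite directions between the groups.

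Igfbp3, Igfbp6 and Igfbp7 were each read by 1 probe. Igfbp3, the main carrier of IGF in blood, gave -3.78 and -2.69 in stem cells, against -4.83 and -4.74 in non-stem cell epithelia (chr11:7106594-7106653). Igfbp6, which prefers Igf2 as a ligand, gave -3.16 and -2.78 against -3.40 and -4.09 (chr15:101979852-101979911). Igfbp7, a secreted protein with low affinity for IGF, gave -3.70 and -4.23 against -4.77 and -4.66 (chr5:77778271-77778330). None of these values was well above background, so no fold is given. The Igfbp7 probe holds 23.3% G and C, against a median of 43.3% over all probes.

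**Figure D2:**
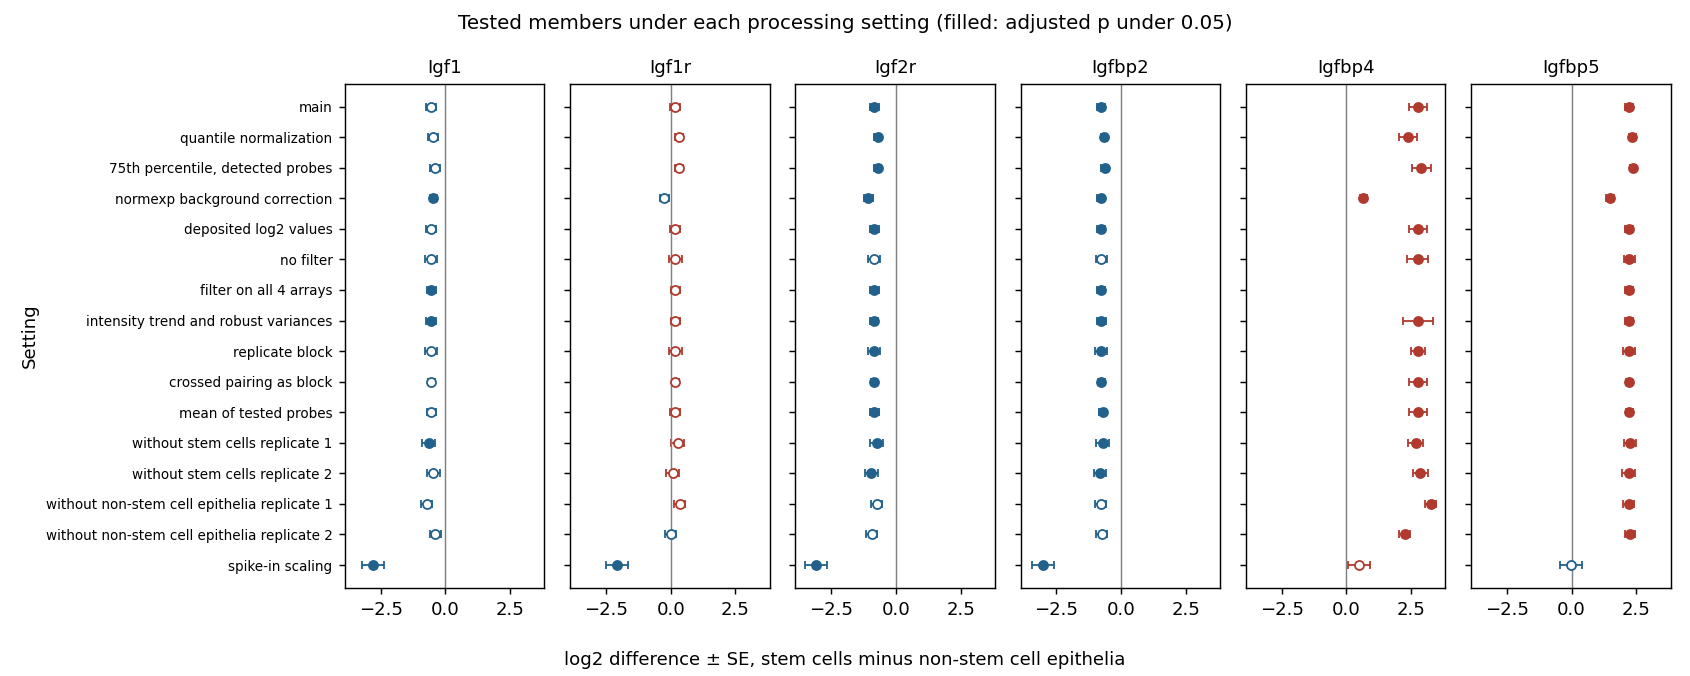
Log2 difference, stem cells minus non-stem cell epithelia, of the 6 tested IGF family genes (x axis, 1 panel per gene) under each processing setting (y axis), with bars for ± SE, filled points for an adjusted p under 0.05, and red above and blue below 0. Igfbp5 and Igfbp4 stay above 0 and Igfbp2 and Igf2r below 0 under the settings shown, except that spike-in scaling puts Igfbp5 at -0.03. The fitted differences of Igfbp4, whose non-stem level was not above background, span 0.50 to 3.26, and Igf1r crosses 0.

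In sorted bulk samples, fewer cells of a type and less RNA per cell cannot be told apart. Igfbp4 and Igfbp5 are also known from stromal, endothelial and basal cells, and ducts secrete growth factors, so markers of these cells are given beside them. Of 14 duct markers, 11 were called higher in stem cells and 1 lower, with a median log2 difference of 1.54. Their summed level was 2210 and 2290 times the 75th percentile in stem cells, against 1090 and 1070 times in non-stem cell epithelia. Such sums follow the brightest probes. Here that was Krt18, at 10.15 and 10.21 in stem cells, against 9.42 and 9.36 in non-stem cell epithelia. Krt18 and Krt8, both called higher, are also on the general epithelial list. Of 12 basal and myoepithelial markers, 6 of 11 tested were called higher in stem cells and none lower, with sums of 240 and 246 against 115 and 118. Among the markers of myoepithelial contraction, Mylk was called higher, by 0.93. Tagln, Acta2, Myh11 and Cnn1 differed by 0.04, -0.11, -0.21 and -0.37, and none of these was called. Krt5 and Krt14, the keratins that define basal cells, were 3.15 and 3.16 higher on the log2 scale, whereas Trp63 differed by 0.55 (adjusted p = 0.059). Of 12 fibroblast markers, 4 were tested and 2 were called higher, Dcn and Fbln1. The other tested ones, Col1a2 and Postn, differed by -0.49 and -0.37 and were not called. The sum over all 12 fibroblast markers was 24.0 and 26.2 against 10.9 and 11.3. Dcn gave 4.10 and 4.29 in stem cells, against 2.07 and 2.04 in non-stem cell epithelia. The rise of the sum was therefore mostly that of Dcn. Col1a1, Lum, Pdgfra, Pdgfrb, Thy1, Dpt and Mfap5 were above background on no array. Of 15 endothelial markers, 9 were tested, 6 were called higher and 1 lower. The sum over all 15 endothelial markers was 37.1 and 37.2 against 26.9 and 28.5. Cdh5, Tie1, Emcn and Esam were above background on no array. The part of these cells in the Igfbp4 and Igfbp5 differences was not tested, nor that of the acinar and erythroid markers in those of Igfbp2 and Igf2r.

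The 250 bases upstream of an annotated start of the 3 called binding proteins are shown because these genes differed in opposite directions. They are RefSeq sequences of GRCm38.p6, in the direction of transcription. Capitals mark matches to 3 motifs, which were searched on both strands and do not overlap here. The first was TATAAA, known from TATA boxes. The next, TTTAAA, is a variant of it. The last, GGGCGG, is the core of GC boxes.
Igfbp5, chr1:72874866-72875115, minus strand: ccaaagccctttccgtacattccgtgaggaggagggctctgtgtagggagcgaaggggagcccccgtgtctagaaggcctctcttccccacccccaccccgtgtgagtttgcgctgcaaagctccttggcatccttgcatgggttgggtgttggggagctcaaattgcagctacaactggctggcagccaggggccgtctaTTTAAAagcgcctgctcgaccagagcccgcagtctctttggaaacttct
Igfbp4, chr11:99040994-99041243, plus strand: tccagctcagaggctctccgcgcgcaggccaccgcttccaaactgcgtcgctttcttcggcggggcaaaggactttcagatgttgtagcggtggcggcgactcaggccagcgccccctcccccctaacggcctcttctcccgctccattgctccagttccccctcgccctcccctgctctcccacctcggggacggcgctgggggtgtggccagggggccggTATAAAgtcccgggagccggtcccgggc
Igfbp2, chr1:72824230-72824479, plus strand: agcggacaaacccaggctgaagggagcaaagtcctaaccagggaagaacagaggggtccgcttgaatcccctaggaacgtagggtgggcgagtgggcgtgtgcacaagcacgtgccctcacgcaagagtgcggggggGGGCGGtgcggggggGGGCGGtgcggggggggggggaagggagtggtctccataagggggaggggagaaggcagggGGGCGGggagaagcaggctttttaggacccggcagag

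The Igfbp4 stretch, at one of its annotated starts, held TATAAA from 28 to 23 bases upstream, a motif present in 12.4% of 32851 promoters. The Igfbp5 stretch held TTTAAA from 49 to 44 bases upstream, present in 12.1%. The Igfbp2 stretch held GGGCGG at 3 places, from 113 to 108, 98 to 93 and 37 to 32 bases upstream, and 32.7% of promoters held at least 1 match. It is the outermost start of Igfbp2, and another annotated start, at chr1:72825137-72825386, held 0 matches of any of the 3 motifs and 56.4% G and C. The G and C content was 58.8% for Igfbp5, 69.2% for Igfbp4 and 67.2% for Igfbp2, against a median of 52.4%. GGGCGG also occurred 3 times upstream of Igf2r, which was lower in stem cells, and at 2 places upstream of Igf1r, which was not called. These matches describe the letters and show no binding.

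The genes whose pattern over the 4 arrays was most like that of Igfbp5 were Fignl1, an AAA ATPase, Csgalnact1, an enzyme of chondroitin sulfate synthesis, and Dbn1, an actin-binding protein. Their root mean square distances from it were 0.021, 0.032 and 0.037 on the log2 scale, out of 10019 genes measured on all 4 arrays. For Igf2r they were Yipf4, a Golgi membrane protein, Vps13b, also of the Golgi, and Lcp1, an actin-bundling protein, at 0.007, 0.008 and 0.018. This likeness is measured over 4 arrays only.

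The genes around the family were read through 8 lists with 117 distinct genes, of which 92 were tested. Across them 17 were called higher and 17 lower, 18.5% each, against 14.1% and 16.8% of all genes, and their median log2 difference was -0.13 against -0.01 for all genes.

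Proteins related to the binding proteins held large rises, while proteases that act on them moved in both directions. Of 12 related proteins, 6 were tested, 4 were called higher and none lower, with a median of 1.56. Ccn4, a matricellular protein, gave 2.91 and 3.15 in stem cells, against -2.47 and -1.84 in non-stem cell epithelia, and was above background on only 1 non-stem array. Its difference was 5.19 ± 0.25 (adjusted p = 0.00028), and normexp background correction gave 2.58. Ccn1 and Ccn2, matricellular proteins of the same family, rose by 1.65 ± 0.15 (adjusted p = 0.0015) and 1.48 ± 0.16 (0.0026), the latter by 0.96 with normexp. Esm1, a proteoglycan best known from endothelium, gave -0.78 and -0.93 in stem cells, against -2.36 and -4.14 in non-stem cell epithelia. It was above background on only 1 non-stem array. Its fitted difference was 2.39 ± 0.56 (adjusted p = 0.027), or 1.5 without non-stem replicate 2 and 0.66 with normexp. The call was lost after quantile normalization.

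Of 17 genes that hold IGF outside the cell or control its release, 8 were tested, 3 were called higher and 2 lower, with a median of 0.18. Adamts1, whose human protein can cut IGFBP2, gave 1.32 and 1.46 in stem cells, against -1.17 and -1.57 in non-stem cell epithelia, a difference of 2.76 ± 0.20 (adjusted p = 0.00076), or 1.26 with normexp. Htra1, a serine protease that cuts Igfbp5, gave 3.74 and 4.03 against 1.66 and 1.44, a difference of 2.34 ± 0.18 (adjusted p = 0.00099). For both proteases the groups were far apart. F2r, the thrombin receptor, rose by 1.04 ± 0.15 (adjusted p = 0.0067, and 0.064 without non-stem replicate 2), or by 0.49 with normexp. Adam9, a membrane protease, gave 3.11 and 3.34 against 5.13 and 4.80, a difference of -1.74 ± 0.19 (adjusted p = 0.0027). Adam28, another membrane protease, was above background in non-stem cell epithelia only and at least 4.5-fold lower in stem cells (adjusted p = 0.00076), while normexp gave a log2 difference of -0.59, smaller than that bound. Pappa, the protease of Igfbp4, was above background in non-stem cell epithelia only, at -2.38 and -1.88. Its stem cell signals, -1.76 and -3.06, lay on both sides of these, so no direction is given. Pappa was not called (adjusted p = 0.66 by limma). Its difference was -0.93 without stem cells replicate 1, 0.37 without stem cells replicate 2 and 0.24 with normexp. Stc1, an inhibitor of Pappa that was above background on 1 array of each group, differed by 0.64 ± 0.22 (adjusted p = 0.077), and without stem cells replicate 1 by 0.83 (0.011). Igfbp1, Pappa2 and Stc2 were above background on no array and Igfals on 1.

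Of 13 genes of the insulin receptor and its adaptors, 12 were tested, 3 were called higher and 2 lower, with a median of -0.13. Irs1, the docking protein that carries the signal of Igf1r and the insulin receptor to PI3K, gave 1.33 and 1.35 in stem cells, against -0.03 and -0.52 in non-stem cell epithelia. Its difference was 1.61 ± 0.21 (adjusted p = 0.0046), or 0.78 with normexp. Irs2, a docking protein of the same kind, gave 4.19 and 4.22 against 3.24 and 3.29, a difference of 0.94 ± 0.15 (adjusted p = 0.0085). The Irs2 call was lost without non-stem replicate 1 (adjusted p = 0.063) or 2 (0.066), and normexp gave 0.47. Insrr, an orphan receptor of the insulin receptor family, gave 1.83 and 1.42 against -0.44 and -0.82, a difference of 2.25 ± 0.22 (adjusted p = 0.002), or 1.03 with normexp. Insr itself differed by -0.13 ± 0.22 on its brightest probe (adjusted p = 0.68 by limma). Its other probes gave -0.45 and -0.46, the latter above background on only 1 of the stem cell arrays. Grb14, an adaptor that inhibits the insulin receptor, was above background in non-stem cell epithelia only, at 0.72 and 0.48, and at least 7.42-fold lower in stem cells (adjusted p = 0.00037). Normexp, which adds an offset to dim signals, gave Grb14 a log2 difference of -0.84, smaller than that bound. Grb10, an adaptor related to it, was also above background in non-stem cell epithelia only, at -1.10 and -1.13, against -1.56 and -2.36 in stem cells. Its fitted difference was -0.84 ± 0.28 and was not called (adjusted p = 0.075 by limma). It was -1.24 without stem cells replicate 1 and -0.44 without stem cells replicate 2. With normexp the Grb10 difference was 0.02. Ptpn1, a phosphatase of the insulin receptor, fell by 0.64 ± 0.15 on its brightest probe (adjusted p = 0.026 by limma). The call was lost without non-stem replicate 1 or 2, where the differences were -0.64 and -0.65. Another Ptpn1 probe, above background on 1 stem cell array and both non-stem arrays, gave -0.03.

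Downstream, most genes did not pass the threshold, as for all genes tested, of which 30.9% were called. Of 26 genes of the PI3K, AKT, mTOR and FOXO pathway, 23 were tested, 3 were called higher and 2 lower, with a median of -0.10. Trib3, a pseudokinase that binds AKT, fell by 2.00 (adjusted p = 0.0012), and Eif4ebp1, a repressor of translation under mTOR, fell by 1.38 (0.003). Ddit4, an inhibitor of mTOR complex signalling, rose by 1.10 (adjusted p = 0.0056, and 0.058 without non-stem replicate 2). Foxo3, a transcription factor held back by AKT, rose by 0.87 (adjusted p = 0.013), and Sesn1, a stress protein, by 0.68 (0.026). Neither call held without non-stem replicate 1 (adjusted p = 0.073 and 0.086) or 2 (0.092 and 0.15). Normexp gave Ddit4 0.61, Foxo3 0.42 and Sesn1 0.20, the last not called. Of 12 RAS and ERK genes, 12 were tested, 1 was called higher and 2 lower, with a median of -0.21. Dusp6, a phosphatase of ERK, fell by 1.28 (adjusted p = 0.0052), and Map2k1, the kinase above ERK, by 1.27 (0.005, and 0.055 without non-stem replicate 2). Elk1, a transcription factor, rose by 0.78 (adjusted p = 0.024), a call lost without non-stem replicate 1 (0.11) or 2 (0.14), after quantile normalization and with normexp (0.30).

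The growth hormone axis drives Igf1 in liver. Of its 8 listed genes, 8 were tested, 2 were called higher and 1 lower, with a median of 0.16. Socs2, an inhibitor of growth hormone signalling, gave 2.11 and 2.22 in stem cells, against 3.35 and 3.47 in non-stem cell epithelia, a difference of -1.25 ± 0.16 (adjusted p = 0.0042). Cish and Socs3, inhibitors of the same family, rose by 0.68 (adjusted p = 0.022) and 0.59 (0.034), but lost the call without non-stem replicate 1 (0.098 and 0.13) or 2 (0.13 and 0.16), and Socs3 also without stem cells replicate 2 (0.072). With normexp their differences were 0.20 and 0.12, neither called.

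Of 18 genes of the mannose 6-phosphate route, in which Igf2r works, 18 were tested, none was called higher and 6 were called lower, with a median of -0.29. Gga2, an adaptor that sorts the receptors at the Golgi, gave 0.94 and 1.00 in stem cells, against 3.04 and 3.15 in non-stem cell epithelia, a difference of -2.13 ± 0.15 (adjusted p = 0.00076). Gga1, a related adaptor, Hexa, a lysosomal enzyme, and Vps35, which returns receptors from endosomes, fell by 1.22, 1.2 and 1.17. Without non-stem replicate 2 the calls of Gga1 (adjusted p = 0.059) and Hexa (0.056) were lost, and without non-stem replicate 1 that of Vps35 (0.071), which normexp put at -0.71. M6pr, the cation-dependent receptor that shares the work of Igf2r, differed by -0.49 ± 0.15 (adjusted p = 0.057).

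Of 11 genes that control Igf2 RNA or its imprinting, 5 were tested, 1 was called higher and 2 lower, with a median of 0.23. Lin28a, an RNA-binding protein that binds Igf2 RNA, gave -0.12 and -0.74 in stem cells, against 3.58 and 5.12 in non-stem cell epithelia, a difference of -4.78 ± 0.52 (adjusted p = 0.0027). Plagl1, a transcription factor of imprinted genes, rose by 1.13 ± 0.16 (adjusted p = 0.0063, and 0.053 without non-stem replicate 1), or 0.63 with normexp. Its probes A_52_P532456 and A_55_P1961965, both above background on all arrays, gave 1.19 and -0.15. H19, the imprinted RNA beside Igf2, was above background on 1 of its 7 probes and in non-stem cell epithelia only, at -1.29 and 0.72, which makes it at least 4.02-fold lower in stem cells (adjusted p = 0.019). With normexp the H19 difference was -0.56 and was not called. Igf2bp1, Igf2bp2 and Igf2bp3, which bind Igf2 RNA, were above background on no array.

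**Figure D3:**
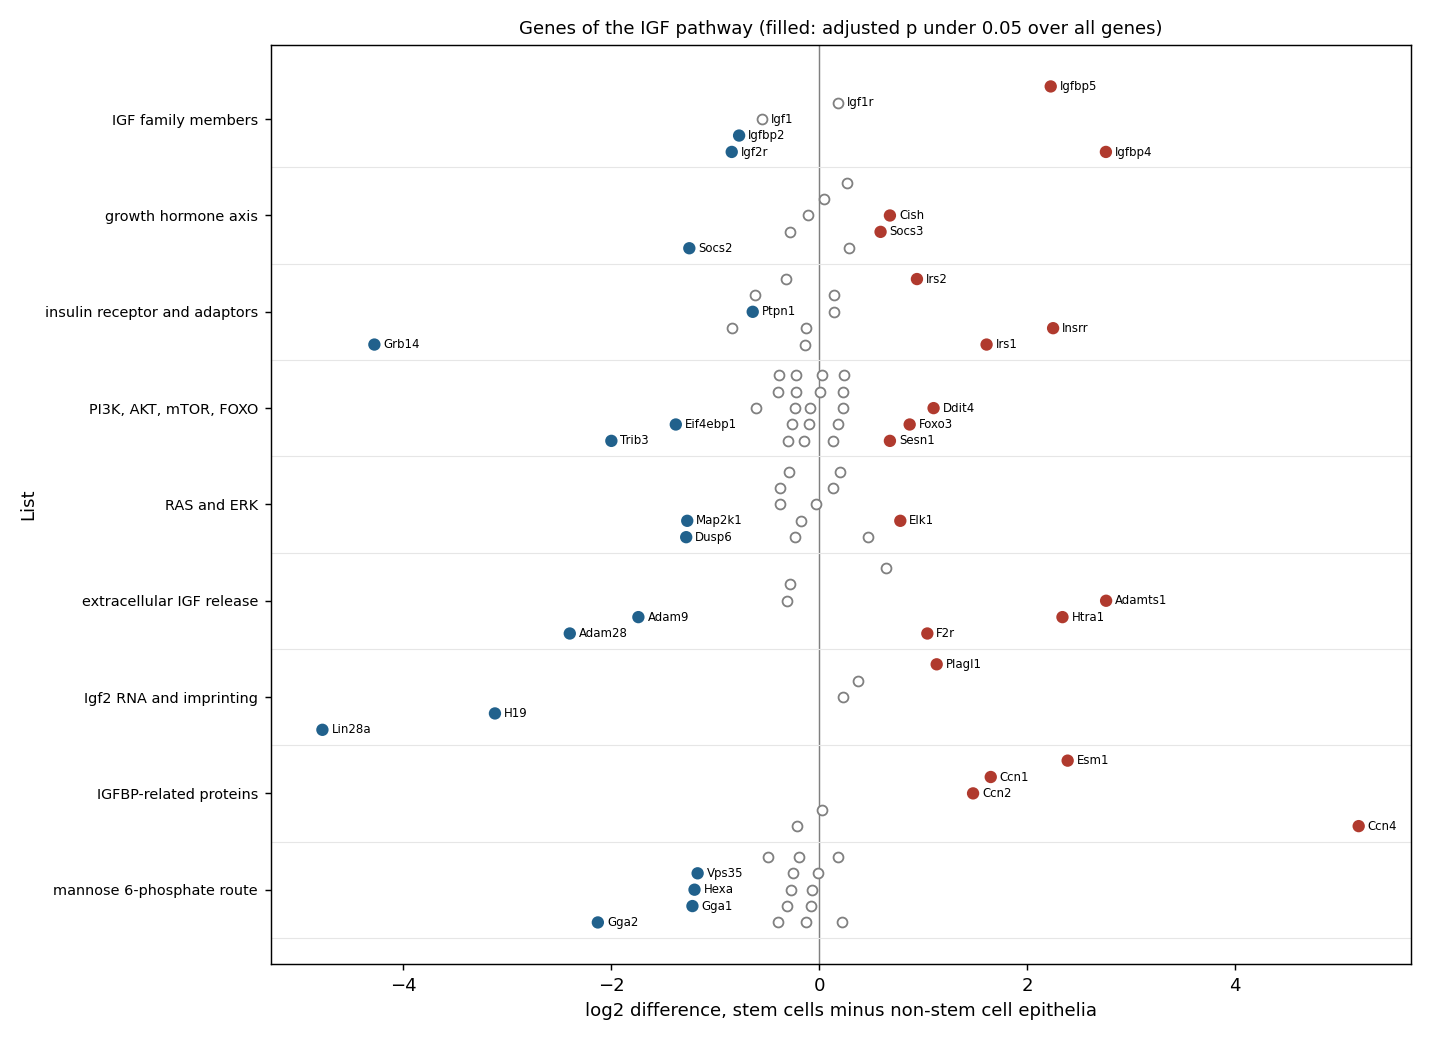
Log2 difference, stem cells minus non-stem cell epithelia (x axis), of the tested genes of the IGF family and of the 8 pathway lists (y axis), with filled points for an adjusted p under 0.05 and open points for the others. The 4 calls drawn for the mannose 6-phosphate route lie below 0 and all 4 calls among the related proteins lie above 0. Spike-in scaling would move the points by -2.26.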

How the data were processed

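RNA of 4 samples was read on one-colour Agilent arrays labelled with Cy3, per the labels. Linear spot intensity came from the deposited scanner files, made with Agilent Feature Extraction 10.7.3.1 per the file headers, while the submitters' processing notes name version 9.1. Probe coordinates are on mm9, and exons were not assigned. The authors' deposited table gives log2 values that are centred on an unknown baseline. Its differences between arrays correlated at 1 with those used here, which settles scale and direction, and its column medians were -0.274 and -0.548 for stem cells and -0.829 and -0.752 for non-stem cell epithelia.

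Control and outlier spots were left out, spots of a probe averaged on the log2 scale, and the 75th percentile over non-control probes subtracted. Probes well above background on at least 2 arrays were fitted with lmFit and eBayes of limma 3.58.1 (R 4.3.3) in a two-sided test. Benjamini-Hochberg adjustment covered 17362 genes, each read by its brightest tested probe. The fit had 5.53 degrees of freedom, so precision is limited by the number of arrays. Replicates are not stated to be separate animals or sorts, and p-values therefore cover only the spread among these samples, possibly a technical one. A bound sets the brighter group's mean against a limit for the dimmer group. That limit is the mean, over its arrays, of the higher of the probe's signal and the lowest signal well above background. A probe can exceed that lowest signal and still not be above background, as Grb10 did in stem cells, so bounds are approximate. The RefSeq table of GRCm38.p6 named 26582 probes by accession, and 29099 kept the array's name.

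The members and lists were chosen with earlier results of these data known. Named were all members, up to 3 rises and 3 falls past the threshold per list, 14 genes by name, and the 3 genes most like each of the 2 members with the largest difference measured on all arrays. Genes beyond that rule (Ccn2, Hexa, Vps35, M6pr) were picked after their values were seen. So were the markers Krt5, Krt14, Krt18, Krt8, Trp63, Mylk, Tagln, Acta2, Myh11, Cnn1, Dcn, Fbln1, Col1a2 and Postn. Some genes of the lists are counted but not reported here by name. Same-numbered replicates did not deviate together (r = -0.103 over 17362 genes). Alternatives changed the normalization, background correction, starting values, filter, variance model, block, probe rule and arrays.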

Additional observations from a re-analysis of the deposited data

How the results depend on the processing

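With 2 arrays per group and dim probes, small differences were the least secure. Across all genes, 2454 were called higher and 2919 lower. The counts were 1602 and 4735 with normexp, 841 and 765 with no filter, 132 and 16682 with spike-in scaling, and 688 to 2875 and 903 to 3564 when 1 array was left out, lowest without non-stem replicate 2. Calls higher made up 45.7% of all calls, 25.3% with normexp, 59.3% with the percentile over detected probes and 0.785% with spike-ins. Spike-in scaling, the single Igf1 probes and a crossed pairing were chosen after seeing the data. Scaling moved the median of all genes by -2.26 with spike-ins, -0.28 with normexp and 0.14 with the percentile over detected probes.

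Members called higher numbered 2, but 1 with a filter on all 4 arrays, where Igfbp4 is not tested, 0 with spike-ins, and 2 with any array left out. Members called lower numbered 2, but 0 with no filter, 4 with spike-ins, and 0 to 3 with 1 array left out. With no filter more genes share the adjustment, and Igf2r (-0.84) and Igfbp2 (-0.77) had an adjusted p of 0.11 each. With 1 array left out, Igf2r ranged from -0.95 to -0.74, Igfbp2 from -0.82 to -0.72, Igf1 from -0.72 to -0.39, Igf1r from 0 to 0.35, Igfbp4 from 2.25 to 3.26 and Igfbp5 from 2.20 to 2.26. For Igfbp4 these are fitted values against an undetected non-stem level, not measured folds. A lone array was assumed to vary like the other group. Igf1 was called at -0.47 with normexp, at -0.55 with the filter on all 4 arrays (adjusted p = 0.033) and with trended variances (0.016), and at -2.81 with spike-ins. Spike-ins gave Igf1r -2.08, Igfbp4 0.50 and Igfbp5 -0.03, and normexp gave Igf1r -0.25. The Igf1 probes below background gave floor values of 0.86, 1.13, 0.77 and 0.73, from which no difference is read. Where the cause of a change is not named, the cause was not tested.

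With the replicate number as a block, 2367 genes were higher and 2965 lower, and the block changed no call of a member, with differences of -0.55 for Igf1, 0.18 for Igf1r, -0.84 for Igf2r, -0.77 for Igfbp2, 2.76 for Igfbp4 (fitted, as above) and 2.23 for Igfbp5. The crossed pairing gave 2102 and 2438 calls.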
